A study of Mus musculus with 2 samples.

Results

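The genes described here are 10 components of the NF-κB pathway, chosen by name for their role with earlier results of these data known. They are the subunits Rela, Relb, Nfkb1 and Nfkb2 and the inhibitors Nfkbia and Nfkbie. The others are the kinase complex genes Ikbkb and Ikbkg, and the feedback genes Tnfaip3 and Birc3. A probe set assigned to a single gene was found for 9 of the 10, out of 19938 named genes on the array, and 8 had a signal above the detection floor, out of 13550 measured genes. Nfkb1 was not analysed here. The samples were myotubes of C2C12, an established mouse myoblast line, after 7 days in 2% horse serum. They then carried an adenovirus for 48 h, at 30 infectious units per cell. In the Ad-caERα culture the vector encodes an estrogen receptor α that is active without ligand, and in the Ad-DsRed culture, the control, a red fluorescent protein. Both cultures therefore received an adenovirus, and no uninfected culture was analysed here. Each group has 1 array, so no difference has a replicate check, and neither p-values nor standard errors are given. The question put to these genes is whether their transcripts differ between myotubes with the active receptor and those with the control protein.

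NF-κB is a family of dimeric transcription factors that share a DNA-binding Rel domain. In resting cells the dimers are kept in the cytoplasm by IκB proteins, and signals from cytokine or Toll-like receptors activate the IκB kinase complex, which marks IκB for destruction and frees the dimers to enter the nucleus. There they switch on chemokine, adhesion and survival genes, and also genes for their own inhibitors, IκBα and the ubiquitin-editing enzyme made from Tnfaip3 among them, which closes a negative feedback loop. In skeletal muscle the pathway is known for its part in wasting, in the response to cytokines and in holding back differentiation of myoblasts.

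The values are log2 signals, and a difference is the Ad-caERα signal minus the Ad-DsRed signal on that scale. The detection floor was a log2 signal of 5.11, taken from olfactory and vomeronasal receptor genes that muscle cells are not thought to express. Differences of at least 1.5-fold (0.58 on the log2 scale) were counted, without a test. To gauge technical spread, differences were compared where none was looked for: their SD was 0.13 between probe sets for one gene (769 genes), 0.12 over 56 ribosomal protein genes and 0.22 over 1205 silent receptor probe sets. These gauges do not hold the spread between cultures. All 10 skeletal muscle markers examined were above the floor on both arrays. Of them 8 were lower in Ad-caERα, as were 48.8% of all measured genes, and 4 of the 10 differed by less than 0.13. The lowest were Ttn, titin (-0.42), and Tnnc2, fast troponin C (-0.32), and Acta1, skeletal α-actin, was nearly equal (12.92 against 12.91). The 2 higher were Des, desmin (0.22), and Mb, myoglobin, which was 1.82-fold higher (a difference of 0.87). Esr1, the estrogen receptor α gene, was 2.08-fold higher in Ad-caERα (8.44 against 7.38), although how far the probe set reads the vector's transcript is unknown.

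At the 2-fold rule 0 of the 8 measured genes were called, where 0.59% of all measured genes were higher and 0.0959% lower. At 1.5-fold, 1 of the 8 was higher by at least 1.5-fold in Ad-caERα, where 1.82% of all measured genes were, and 0 were lower by that much, where 0.886% of all measured genes were. The 1 gene was Nfkbia. Of the others, Ikbkg was slightly higher and Ikbkb and Rela nearly equal, while Nfkb2, Tnfaip3, Relb and Nfkbie were lower by less than 1.5-fold. The median difference of the 8 was -0.047, against 0.0018 over all measured genes, and 5 of the 8 lay below 0, as did 48.8% of all measured genes. The differences of the 7 genes other than Nfkbia ran from -0.28 to 0.36. Because the genes were chosen with earlier results of these data known, these counts are a description.

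**Figure D1:**
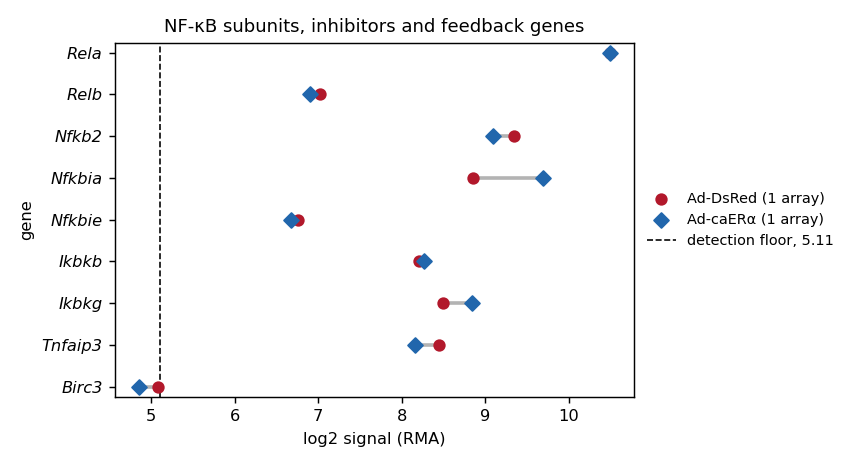
Log2 signal (horizontal axis) of the 9 genes that have a probe set, in Ad-DsRed (circles) and Ad-caERα (diamonds), 1 array each, with the detection floor of 5.11 as a dashed line; levels of different genes are not comparable because each comes from its own probes. Nfkbia has the widest gap, with the higher signal in Ad-caERα, and Birc3 lies below the floor on both arrays.

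Of the 2 inhibitors, Nfkbia passed the 1.5-fold rule and Nfkbie did not. Nfkbia encodes IκBα, the IκB protein that is degraded and made anew fastest after stimulation. Its log2 signal was 8.86 in Ad-DsRed and 9.70 in Ad-caERα, a difference of 0.84 or 1.79-fold. In the list of measured genes ordered by difference, Nfkbia was number 110 from the top, so 0.812% of genes had a difference at or above its own. Among the 2532 genes whose mean level lay within 0.5 of its own, that share was 0.711%, and their differences had an SD of 0.23. Nfkbie encodes IκBε, an inhibitor that acts more slowly than IκBα. Its signal was 6.76 in Ad-DsRed and 6.67 in Ad-caERα, a difference of -0.084, which is within the SD between probe sets of a gene.

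The 3 measured subunits were level or lower with the active receptor. Rela encodes the subunit that carries most transactivation in the classical dimer, and its signal was 10.50 in Ad-DsRed and 10.49 in Ad-caERα. Relb encodes the subunit of the non-canonical pathway, and its signal was 7.02 against 6.90, a difference of -0.13. Nfkb2 encodes the precursor that is both an inhibitor and, once processed, the partner of RelB. Its signal was 9.35 in Ad-DsRed and 9.10 in Ad-caERα, a difference of -0.25 or 1.19-fold lower. That is larger than the SD between probe sets of a gene. Of the 2566 genes near its level, 6.86% had a difference as low or lower, and their differences had an SD of 0.24. Rel, the c-Rel subunit gene, which is not one of the 10, had a difference of -0.34 (8.92 against 8.58). All 3 measured subunits of the 10 lay below 0, as did 48.8% of all measured genes. Rela and Relb were within the SD between probe sets of a gene.

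The kinase complex genes lay at or above 0. Ikbkb encodes IKKβ, the kinase that phosphorylates IκBα, and its signal was 8.21 in Ad-DsRed and 8.26 in Ad-caERα. Ikbkg encodes NEMO, the regulatory subunit that binds ubiquitin chains. Its signal was 8.49 in Ad-DsRed and 8.85 in Ad-caERα, a difference of 0.36 or 1.28-fold. Of all measured genes, 5.85% had a difference at or above that of Ikbkg. It was the only gene of the 8, beside Nfkbia, with a difference above 0.13.

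Of the feedback ubiquitin enzymes 1 was measured, and it did not reach 1.5-fold. Tnfaip3, whose protein trims and rebuilds ubiquitin chains to end signalling, had a signal of 8.44 in Ad-DsRed and 8.16 in Ad-caERα. This difference of -0.28, or 1.22-fold lower, was the lowest of the 8, and 8.84% of all measured genes were as low or lower. The differences of the genes near its level had an SD of 0.25. Birc3, an inhibitor of apoptosis gene and ubiquitin ligase of the tumor necrosis factor receptor complex, had signals of 5.08 and 4.85, below the floor on both arrays, so no fold is given.

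**Figure D2:**
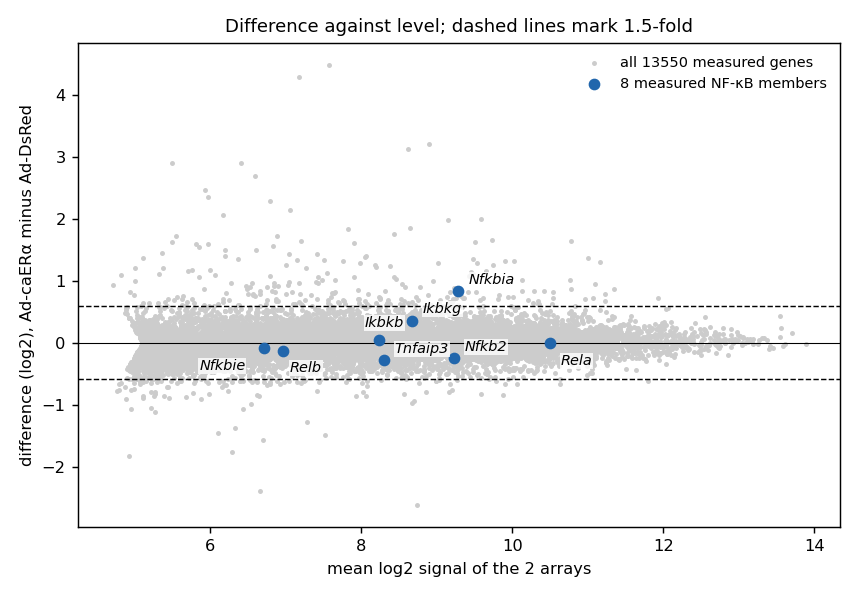
Difference on the log2 scale (vertical axis) against the mean log2 signal of the arrays (horizontal axis) for 13550 measured genes (grey) and the 8 measured NF-κB genes (blue), with dashed lines at 1.5-fold. Nfkbia lies above the upper line at 0.84, where grey points also lie, and the other 7 NF-κB genes lie between the dashed lines.

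The promoters of several of these genes share a sequence feature. RefSeq promoter windows (assembly GRCm38.p6, from 250 bases before the transcript start to 50 after) were at hand for 7 of the 10 genes. They were searched on both strands for the κB consensus, the 10-base site that NF-κB dimers bind, with overlapping matches all kept. A match was present in windows of 4 of the 7 genes, Nfkbia, Nfkbie, Nfkb2 and Tnfaip3, and in 6 of the 13 windows of the 7 genes, against 4.51% of all 32851 windows. None of the windows of Rela, Ikbkg or Birc3 held one. Windows of the same gene are not independent. Those of Nfkb2 at chr19:46305445-46305744 and chr19:46305680-46305979 overlap, and a site they share is counted in each. Below are the first windows of Nfkbia (chr12:55492598-55492897, minus strand), Nfkb2 (chr19:46304487-46304786, plus strand) and Tnfaip3 (chr10:19015361-19015660, minus strand), 5′ to 3′, with the matched bases in capitals; they are shown because all of them hold a match, while only Nfkbia passed the 1.5-fold rule.
Nfkbia: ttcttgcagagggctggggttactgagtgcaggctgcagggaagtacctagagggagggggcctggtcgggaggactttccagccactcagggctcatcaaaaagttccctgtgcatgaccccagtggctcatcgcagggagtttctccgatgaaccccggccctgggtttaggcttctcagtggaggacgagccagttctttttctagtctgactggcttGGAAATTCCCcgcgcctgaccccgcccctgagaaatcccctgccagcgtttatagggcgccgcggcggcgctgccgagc
Nfkb2: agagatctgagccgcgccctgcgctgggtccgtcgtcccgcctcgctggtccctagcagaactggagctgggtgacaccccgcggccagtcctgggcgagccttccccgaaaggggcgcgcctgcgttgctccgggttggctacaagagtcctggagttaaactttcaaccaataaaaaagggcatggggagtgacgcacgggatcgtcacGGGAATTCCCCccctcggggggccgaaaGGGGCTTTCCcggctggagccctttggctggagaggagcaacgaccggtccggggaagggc
Tnfaip3: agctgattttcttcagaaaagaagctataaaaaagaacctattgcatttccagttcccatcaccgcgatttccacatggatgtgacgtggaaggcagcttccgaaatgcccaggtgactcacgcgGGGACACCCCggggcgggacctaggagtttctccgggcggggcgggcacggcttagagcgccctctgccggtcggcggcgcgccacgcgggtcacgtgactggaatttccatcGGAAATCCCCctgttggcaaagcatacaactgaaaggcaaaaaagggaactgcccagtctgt

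In the Nfkbia window the match runs from position -29 to -20 relative to the transcript start. The Nfkb2 window has 3 matches, of which the first pair overlap, starting at -39, and the last ends at -2. The Tnfaip3 window has 2 matches, from -125 to -116 and from -12 to -3. The single Nfkbie match lies from -106 to -97 (chr17:45555450-45555749, plus strand). The 4 genes with a match had differences from -0.28 to 0.84, and only Nfkbia of them passed the 1.5-fold rule. The palindromic estrogen response element GGTCANNNTGACC was in 0 of the 13 windows and in 0.0700% of all windows. A match to either motif is a description of the sequence; binding was not measured.

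The rest of the pathway was taken from a list of 90 further components, of which 82 had a single-gene probe set and 69 were measured. By the 1.5-fold rule 2 of the 69 were higher and 0 lower, or 2.90% and 0%, against 1.82% and 0.886% of all measured genes. The median difference was -0.013, and 38 of the 69 lay below 0, as did 48.8% of all measured genes. The difference was smaller than the SD of 0.13 between probe sets for 31 of the 69, and for 6474 of all 13550 measured genes.

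Of the 2 genes past the rule, Tlr2, a Toll-like receptor for bacterial lipoproteins, had a signal of 7.23 in Ad-DsRed and 7.97 in Ad-caERα, 1.67-fold higher. Tnip1 encodes a ubiquitin-binding partner of the Tnfaip3 protein that also restrains NF-κB. Its signal was 7.72 in Ad-DsRed and 8.31 in Ad-caERα, a difference of 0.59, which only just reached the rule. With a loess correction or a second quantile normalization its difference was 0.55 and 0.56, short of it. The promoter windows of both genes hold κB matches; that of Tnip1 has an uninterrupted palindrome of 12 bases, shown in capitals in the stretch from position -80 to -21 (chr11:54962961-54963020, minus strand).
Tnip1: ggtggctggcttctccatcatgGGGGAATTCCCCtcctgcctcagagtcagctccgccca

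Among the other subunits and inhibitors, 8 were measured and 4 lay below 0. The lowest were Nfkbiz, an atypical nuclear IκB protein gene (-0.39, or 1.31-fold lower), and Rel. Bcl3, another nuclear IκB family gene, was at -0.27 (7.05 against 6.79). The highest were Nkiras2, a Ras-like inhibitor of NF-κB (0.31), and Nfkbib, the gene of IκBβ (0.11; 9.62 against 9.74). Of the IκB family genes Nfkbia, Nfkbib, Nfkbie, Nfkbiz and Bcl3, Nfkbia was the only one past the 1.5-fold rule.

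The list of other kinases and their binding partners had 10 measured genes. Its lowest were Tbk1 (-0.22), a relative of the IκB kinases, and Map3k14 (-0.14), the NF-κB-inducing kinase of the non-canonical pathway. Its highest were Irak2 (0.23), an interleukin-1 receptor-associated kinase, and Tab1 (0.15), an activator of the kinase upstream of IKK. The 22 measured adaptors and ubiquitin ligases had a median of -0.0009. The highest were Ticam1 (0.35) and Tradd (0.32), the adaptors of Toll-like receptors and of tumor necrosis factor receptor signalling, and the lowest were Xiap (-0.21) and Traf2 (-0.18). Of 13 measured negative regulators the lowest were Cyld, a deubiquitinating enzyme (-0.26), and Zc3h12a, a ribonuclease that degrades inflammatory transcripts (-0.17), and Otulin (0.20) came next below Tnip1. These groups had no gene but Tnip1 past the rule.

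Receptors ran from -0.42 to 0.74 and ligands from -0.46 to 0.067. Of 12 measured receptors the lowest were Il1rap, the accessory chain of the interleukin-1 receptor (-0.42; 7.80 against 7.38), and Cd40 (-0.37; 6.12 against 5.75), and Tnfrsf12a, the receptor for the cytokine TWEAK in muscle, was at 0.29, the highest after Tlr2. Only 4 of 10 ligands with a probe set were measured, and Tnf, Il1a and Il1b were below the floor on both arrays. Ltb, the lymphotoxin β gene, was below the floor in Ad-caERα (4.82 against 5.28), at least 1.12-fold lower, and Tnfsf11 was at -0.15. The highest ligands were Il33 (0.067) and Il18 (-0.069).

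**Figure D3:**
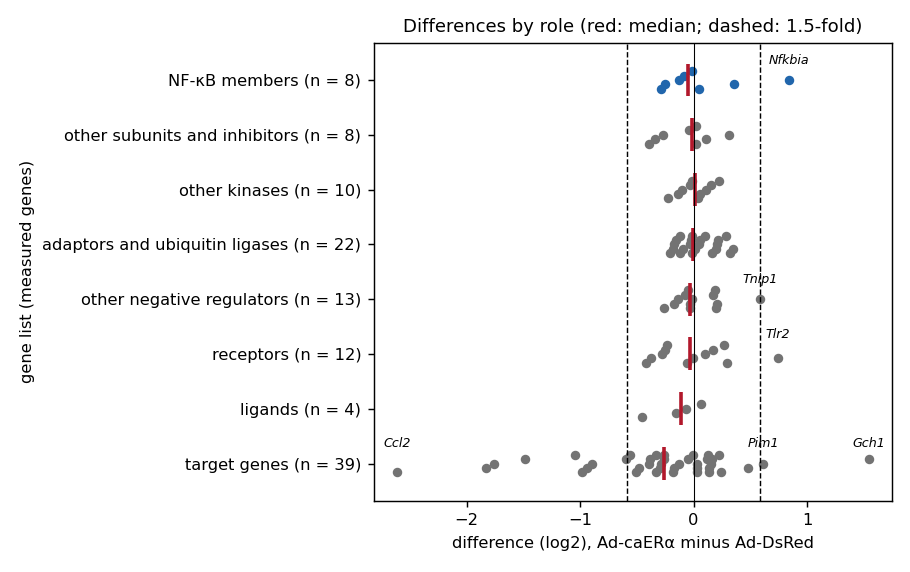
Difference on the log2 scale (horizontal axis) of each measured gene in 8 lists of pathway genes and targets; points are genes, red bars are list medians and dashed lines mark 1.5-fold. The medians of the first 7 lists lie between -0.11 and 0.014, and the target genes, with a median of -0.26, reach down to Ccl2 and up to Gch1.

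Target genes of NF-κB were more spread out than the pathway itself, and mostly on the lower side. Of 48 listed targets 45 had a single-gene probe set and 39 were measured. By the 1.5-fold rule 9 of the 39 were lower and 2 higher, or 23.1% and 5.13%, against 0.886% and 1.82% of all measured genes. The median difference was -0.26, and 25 of the 39 lay below 0, as did 48.8% of all measured genes. Ccl20, Cxcl5, Cxcl10, Mmp9, Mmp13, Nos2 and Cfb were measured only through Ad-DsRed, so the floor rule fixed them below 0. Gch1 was measured only through Ad-caERα and was fixed above 0. Some of these signals are weak: when signals under the floor were set to it, 7 were lower, and with a floor at the 99th percentile of the receptor genes 5 were lower and the median was -0.066. The list was drawn up with the low values of several chemokines already known, so its count is a description.

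Of the 9 targets lower by the 1.5-fold rule, 4 were chemokine genes and 5 were not. All 8 measured chemokine genes of the list were lower in Ad-caERα, with a median of -0.77, where 48.8% of all measured genes were lower. Ccl20, Cxcl5 and Cxcl10 were measured only through their Ad-DsRed signals, so the floor rule fixed their direction. Ccl20 was at least 1.04-fold lower (5.16 against 4.77). The 4 past the 1.5-fold rule are 50% of the 8, against 0.886% of all measured genes. The 31 other measured targets had a median of -0.049. Ccl2, the monocyte chemoattractant, had a signal of 7.43 in Ad-caERα against 10.04 with the control vector, 6.11-fold lower. Cxcl1, a neutrophil attractant, was 1.98-fold lower at 6.05 against 7.04. With Ad-caERα signals under the floor, Cxcl5 and Cxcl10 were at least 1.67-fold and at least 1.54-fold lower. Ccl5 (-0.56) and Ccl7 (-0.51) fell short of the rule.

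Outside the chemokines, 17 of the 31 measured targets lay below 0, as did 48.8% of all measured genes. By the 1.5-fold rule 5 were lower, or 16.1%, against 0.886% of all measured genes. Saa3, serum amyloid A, was 3.38-fold lower (7.17 against 5.41), and Mmp3, a matrix metalloproteinase, was 2.80-fold lower (8.27 against 6.78). Vcam1, the vascular cell adhesion molecule that myoblasts also carry, was 1.91-fold lower (9.16 against 8.23). Mmp13 and Cfb, complement factor B, had Ad-caERα signals under the floor and were at least 1.37-fold and at least 1.45-fold lower, short of the rule as bounds. Genes lower by less than 1.5-fold included Nos2, inducible nitric oxide synthase (-0.48; below the floor in Ad-caERα), the prostaglandin synthase gene Ptgs2 (-0.33), Il1rn, the interleukin-1 receptor antagonist gene (-0.33), Icam1 (-0.26) and Cflar, a caspase inhibitor gene (-0.13).

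The other 14 of the 31 lay above 0, and 2 were higher by the rule, or 6.45%, against 1.82% of all measured genes. Gch1, the rate-limiting enzyme of tetrahydrobiopterin synthesis, was under the floor with the control vector and at 6.63 with the active receptor, at least 2.87-fold higher, the highest difference among the targets. Pim1, a kinase gene of growth and survival, was 1.53-fold higher (8.62 against 9.23), although with a loess correction it was at 0.58, just short. Sod2, mitochondrial superoxide dismutase, gave 10.98 with the control vector and 11.01 with the active receptor, and Bcl2l1, the anti-apoptotic Bcl-x gene, was at 8.10 and 8.13. Ehd1 had the highest difference after Gch1 and Pim1, at 0.48 or 1.39-fold (10.16 against 10.64). Gadd45b (0.16) and Ier3 (0.24), early response genes, were slightly higher.

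**Figure D4:**
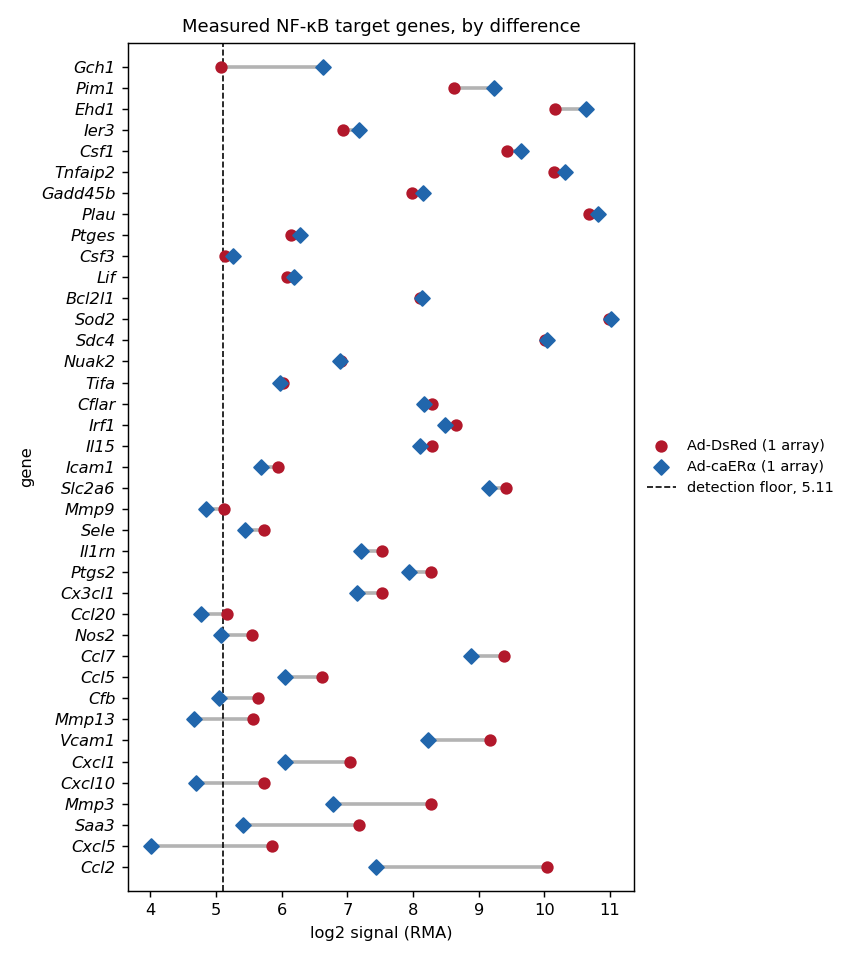
Log2 signal (horizontal axis) of the 39 measured target genes in Ad-DsRed (circles) and Ad-caERα (diamonds), 1 array each, ordered by difference from the highest at the top, with the detection floor of 5.11 dashed. Gch1 has the widest gap upwards and Ccl2 the widest downwards; 14 genes are higher in Ad-caERα and 25 lower.

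Promoter windows were at hand for 34 of the 48 targets, and those of 13 hold a κB match, 38.2% of the genes, against 5.14% of all 27025 genes with a window. Of the 11 measured targets with a match, 5 lay below 0, with a median difference of 0.030. They ran from Cxcl10 and Cxcl1 at the low end to Gch1 at the high end. Of the 15 measured targets whose windows lack one, 10 lay below 0, with a median of -0.26. Measured targets without a window are in neither group, and sequence outside the windows was not searched. Among the further pathway components, 15 of the 72 genes with a window held a match. Of the 11 of these that were measured, 8 lay below 0, with a median of -0.034, and of the 44 measured without a match 20 did, with a median of 0.022. Over all measured genes with a window, 342 of the 665 with a match lay below 0, with a median of -0.012. The same held for 4810 of the 10060 without a match, with a median of 0.0088. These counts are a description, with no test.

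Markers of other cell types gave these values. Of 14 leukocyte markers with a probe set 4 were measured, Cd68, Cd14, Cd3e and Laptm5, with Ptprc, Adgre1, Csf1r and Itgam below the floor on both arrays, and the summed linear signal of the 14 was 455 in Ad-DsRed and 482 in Ad-caERα. Of 10 endothelial markers 4 were measured, with Pecam1 and Cdh5 below the floor on both arrays, and their summed signal was 387 and 369. Fibroblast markers, which myoblast cultures also express, summed to 12577 in Ad-DsRed and 12574 in Ad-caERα over 9 genes, a sum that rests mostly on the bright gene Dcn (0.065). Of the 8 measured, 6 were lower in Ad-caERα, as were 48.8% of all measured genes, among them Pdgfrb (-0.39) and Pdgfra (-0.28). By the 1.5-fold rule 1 was lower, or 12.5%, against 0.886% of all measured genes. It was Fap (-0.64), measured only through Ad-DsRed and at least 1.22-fold lower, short of the rule as a bound. Adipocyte markers with a probe set numbered 8, and 5 were measured, Pparg, Cebpa, Plin1, Cidec and Retn, with Adipoq and Fabp4 below the floor on both arrays. The 8 summed to 550 in Ad-DsRed and 515 in Ad-caERα, and Pparg was the brightest (8.22 against 8.16). Below 0 were 4 of the 5, where 48.8% of all measured genes were. The part of these cell types in the differences above was not tested. In a bulk sample, fewer cells of a type and less RNA per cell cannot be told apart.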

How the data were processed

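Expression was measured in 2 samples, 1 array per vector, from 150 ng of total RNA per the labels' protocols. The deposited table gives log2 signals, 1 per probe set, that the authors made with Affymetrix Expression Console and RMA, per the submitters' processing notes; for versions, probe filters and the number of arrays normalized together, nothing was given in the sources used here. The method quantile-normalizes arrays, which removes any change in total mRNA, and compresses differences between weak signals. Read depth does not apply, and the number of arrays limits the precision.

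The platform's annotation named 1 gene for 21789 of 35556 probe sets; 21698 gene identifiers matched RefSeq (GRCm38.p6), changing 0 symbols, and 1621 probe sets shared by several genes were left out. The brightest probe set stood for a gene; each analysed NF-κB member had 1. A gene was measured if its higher signal passed the 95th percentile of 1205 receptor probe sets. Where the dimmer array lay below that floor, the fold is a lower bound. The members and lists were chosen with earlier results of these data known. Named are all members and, in the pathway and target lists, genes past 1.5-fold and up to 2 highest and 2 lowest. Others (among them Tnf, Sod2, Bcl2l1, Bcl3, Icam1, Ptgs2, Nos2, Il1rn, Cflar, Gadd45b, Ier3, Ccl5, Ccl7 and the cell type markers) were picked for their role after their values were seen. Ehd1 was added as the next highest target, and Ccl20 and Mmp9 because the floor rule fixed their direction. The code was tested on simulated data. Alternatives covered the floor, normalization, probe set rule and fold. Python 3.11.15, numpy 2.4.6, pandas 2.3.3, statsmodels 0.14.6 and matplotlib 3.10.9 were used.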

Additional observations from a re-analysis of the deposited data

How the results depend on the processing

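No paired analysis was possible because there is only 1 array per vector, which also leaves no replicate to omit. The spread between cultures is unknown. Of 250 recalculated values, 240 moved by less than the SD of 0.13 between probe sets of a gene or, for counts, by no more than 1.5 times. The difference of Nfkbia ranged from 0.81 to 0.84. When signals under the floor were set to it, Birc3 was at 0 and Cxcl5, Cxcl10 and Mmp13 at -0.74, -0.62 and -0.45. With the floor at the 99th percentile (6.17) 5 target genes were lower by 1.5-fold and their median was -0.066. With the loess correction 1 other pathway gene and 1 target gene were higher by that rule, and with a second quantile normalization 1 other pathway gene, since Tnip1 and, under loess, Pim1 lie at the threshold. At 2-fold 0 of the NF-κB members were past the rule. Averaging or sharing probe sets could not move the members, which have 1 probe set each, and centring shifts all genes by 0.0018. Dropping the floor or raising its percentile only changes which genes count as measured, and could not move the difference of a gene. Many of the 240 values were therefore fixed in advance. For Nfkbia, only the loess correction and the second quantile normalization could shift the difference by more than 0.0018.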
